A study of Mus musculus with 6 samples.

Results

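Long intergenic noncoding RNAs (lincRNAs) are transcripts from between protein-coding genes that are not translated into protein. The array used here carries 16251 features (60-base probes) designed against such transcripts in the mouse, and 6827 of them (42.0%) were measured well above background on every scanner array of at least 1 of the 2 groups. Those 6827 are described here. They were chosen by the scanner's detection flags, so that a feature seen in 1 group only had to be brighter there, and such features are given apart. The other features of the array were above background by the same rule in 23541 of 39430 cases (59.7%).

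The RNA came from RAW264.7 cells, an established line of mouse macrophages, and was labelled with Cy3 for a one-colour Agilent array. The 3 control samples were kept in culture medium (DMEM) for 4 h, and the 3 treated samples were exposed for 4 h to AEPS at 50 µg/ml, an agent whose name the labels do not spell out. All samples are of 1 cell line, with no genetic change stated. Whether the replicates were grown as different cultures is not stated, so the differences between samples of a group, on which the p-values rest, may be technical ones. The cells were measured in bulk, so a change in the RNA per cell and a change in the make-up of the culture cannot be told apart.

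In macrophages, microbial and inflammatory signals change the output of noncoding genes along with that of cytokine genes. Some of these transcripts are precursors of microRNAs that restrain the response, such as the host transcript of miR-155. Others act as RNAs: Morrbid acts at its neighbour Bcl2l11, which encodes the pro-apoptotic protein BIM, and Neat1 is the scaffold of nuclear bodies called paraspeckles.

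The values are the authors' deposited log2 levels, which hold 3 distinct columns for each group. The scanner files used here hold only 4 distinct arrays, because the files labelled replicates 1 and 2 of each group have identical values, and the files labelled replicate 3 match the table's replicate 2 columns (Spearman 0.99999 across features). The detection flags therefore come from the arrays behind replicates 1 and 2 of the table, and replicate 3 gave none. Between 55.4% and 58.7% of features were well above background on these 4 arrays. Over the members, samples of 1 group correlated at 0.949 to 0.977 (Pearson, across features), and samples of different groups at 0.917 to 0.954. Of 11 macrophage markers on the array 10 were above background, Mertk being below it. The same held for 1 of 4 B cell, 2 of 4 T cell, 0 of 4 epithelial and 1 of 5 fibroblast markers. Csf1r, Lyz2 and Cd14 were among the macrophage markers found.

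The sequences of the 5 members that rose most and the 5 that fell most with AEPS, among those above background in both groups, show what the array measured in place of named genes. Each is the 60-base probe, 5′ to 3′, as the scanner files give it, with its position in mm9 (NCBI37), the build in the file headers. All letters are in lower case. The motif ATTTA, counted further on, occurs in none of these 10 on the probe strand. The rises come first.
A_30_P01032196 (chr16:84708738-84708797, plus strand): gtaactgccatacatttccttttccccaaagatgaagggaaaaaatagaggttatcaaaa
A_30_P01017643 (chr16:84705907-84705966, minus strand): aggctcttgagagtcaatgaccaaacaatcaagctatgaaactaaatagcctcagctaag
A_30_P01020928 (chr16:84706075-84706134, minus strand): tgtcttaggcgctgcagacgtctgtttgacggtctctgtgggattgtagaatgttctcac
A_30_P01018532 (chr10:69682206-69682265, minus strand): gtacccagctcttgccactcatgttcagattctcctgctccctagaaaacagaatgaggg
A_30_P01019832 (chr6:3283192-3283251, minus strand): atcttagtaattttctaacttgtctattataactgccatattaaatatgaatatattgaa
The falls follow.
A_30_P01024622 (chr9:34192495-34192554, minus strand): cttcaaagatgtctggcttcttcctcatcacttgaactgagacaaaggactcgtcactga
A_30_P01023511 (chr7:26057524-26057583, plus strand): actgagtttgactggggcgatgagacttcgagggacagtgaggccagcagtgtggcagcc
A_30_P01026329 (chr5:106125236-106125295, minus strand): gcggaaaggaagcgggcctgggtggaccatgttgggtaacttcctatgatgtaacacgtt
A_30_P01019086 (chr7:16634351-16634410, plus strand): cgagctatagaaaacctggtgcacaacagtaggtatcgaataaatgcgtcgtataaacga
A_30_P01031570 (chr16:9137645-9137704, plus strand): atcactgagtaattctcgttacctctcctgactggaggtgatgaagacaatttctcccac

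The largest rises lay on chromosome 16, in the interval between the protein-coding genes Ncam2 and Mrpl39 in which RefSeq's GRCm38.p6 gene table lists Mir155hg and Mir155. A_30_P01032196, designed to the plus strand of chr16:84708695-84708806, read 4.35, 4.91 and 5.14 in the control samples and 9.40, 9.48 and 9.65 with AEPS. The log2 change was 4.71 ± 0.22 (SE), or 26.2-fold, with an adjusted p of 0.000206 in limma over all 30368 tested features. A_30_P01017643, on the minus strand of chr16:84702353-84710928, read 4.46, 4.83 and 4.97 against 8.88, 8.93 and 8.94. A_30_P01020928 of the same region rose from 3.87, 4.95 and 5.04 to 8.41, 8.66 and 8.68. In none of these did the groups overlap. Mrpl39, the nearest measured protein-coding gene and a mitochondrial ribosomal protein gene, changed by 0.17 ± 0.08 (adjusted p 0.166, limma).

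All 7 plus-strand members of that interval rose, by 1.65 to 4.71, as did 3 of its 4 minus-strand members, by 1.70 to 4.16. Only 2 of the 7 plus-strand members were above background on both control arrays, and the other 5 entered through the AEPS group alone. The fourth minus-strand member, A_30_P01024115, read 5.68, 4.99 and 4.63 in control samples and 5.50, 5.14 and 5.66 with AEPS, and its groups overlap. Which of these features lie within the annotated Mir155hg transcript was not determined, as no annotation in mm9 was used. This place, and the other 3 set out in the plot by strand, were picked after their values were seen.

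**Figure D1:**
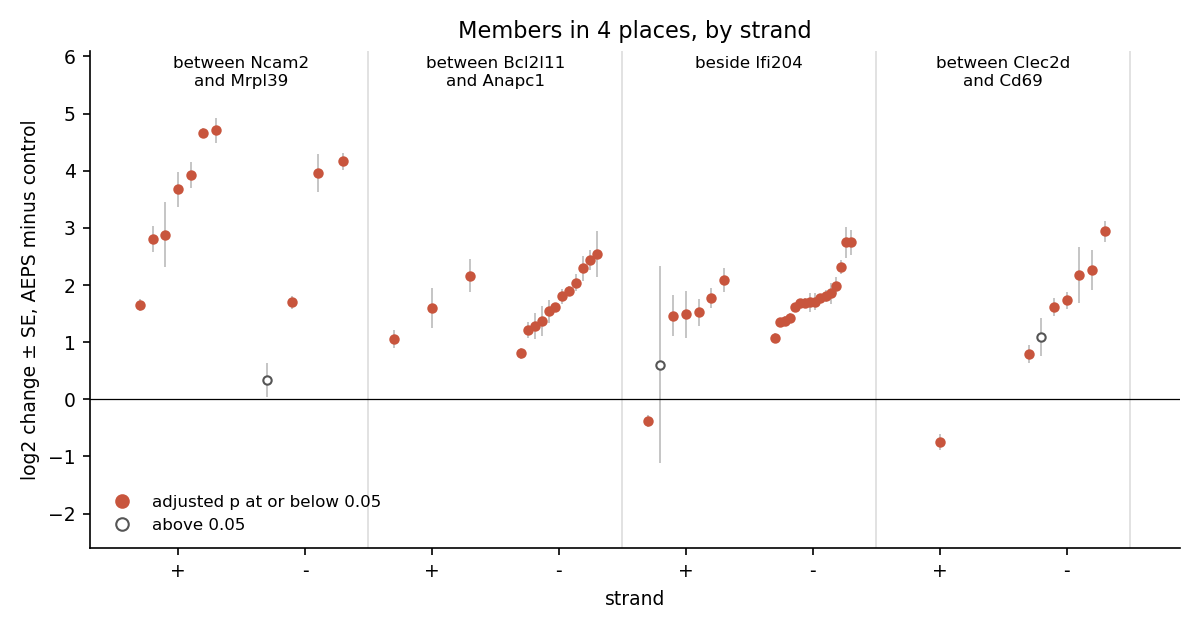
Log2 change with its standard error (vertical axis) of every member in 4 places of the genome, apart by strand (horizontal axis); filled points passed an adjusted p of 0.05. Members between Ncam2 and Mrpl39 rose on both strands by up to 4.71, while the only plus-strand member between Clec2d and Cd69 fell, with a change of -0.75.

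The fourth largest rise was on chromosome 10. A_30_P01018532, on the minus strand of chr10:69669025-69686275 between Ccdc6 and Slc16a9, read 10.30, 10.34 and 10.14 in control samples and 13.66, 13.55 and 13.37 with AEPS, a change of 3.27 ± 0.11 (9.62-fold). Its groups lie more than 3 log2 units apart. Ccdc6, 13.7 kb away, changed by 0.37 with an adjusted p of 0.0817 (limma). Distances to genes are counted here from the member's region to the gene's nearest array feature, not to the end of the gene itself. A_30_P01019832 on chromosome 6 rose from 4.40, 4.79 and 4.90 to 7.53, 7.73 and 7.42, and its nearest measured gene, the interferon-inducible Samd9l 37.8 kb away, rose by 1.81 (adjusted p 0.000214, limma).

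On chromosome 1 the rises fell beside Ifi204, a member of the interferon-inducible Ifi200 family, whose proteins bind DNA. A_30_P01024706, on the minus strand of chr1:175660642-175671878, read 4.58, 5.48 and 5.43 in control samples and 7.68, 7.97 and 8.08 with AEPS. A_30_P01029545 of the same region read 4.15, 4.81 and 4.92 against 7.32, 7.52 and 7.28. Both changed by 2.75, with standard errors of 0.27 and 0.22. All 16 minus-strand members between 175653557 and 175717250 rose, by 1.07 to 2.75, and all 16 were above background in both groups. On the plus strand 5 of 7 members rose and 1, A_30_P01024771, fell by 0.38 on the log2 scale, from 5.92, 5.98 and 5.97 to 5.38, 5.63 and 5.73. None of the 5 that rose was above background on both control arrays. Features of other kinds lie on the same strand in several of these regions, so the minus-strand members need not be separate transcripts from the Ifi200 genes. Ifi204 itself rose by 1.59 (SE 0.06, adjusted p 0.000128, limma).

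Between Bcl2l11 and Anapc1 on chromosome 2, where RefSeq lists Morrbid, all 15 members rose. Of the 15, 13 were above background in both groups: 11 on the minus strand rose by 0.80 to 2.44 and 2 on the plus strand by 1.05 and 2.16. The other 2 entered through the AEPS group alone. A_30_P01017626, on the minus strand of chr2:128217275-128217972, read 4.71, 5.21 and 5.31 in control samples and 7.38, 7.63 and 7.53 with AEPS. A_30_P01033039, on the same strand, read 7.92, 7.84 and 7.89 against 9.48, 9.43 and 9.58. The separate array feature named Morrbid read 5.78, 6.37 and 6.17 against 7.35, 7.58 and 7.59, a change of 1.40 ± 0.17. Bcl2l11 rose too, by 1.55 ± 0.08 (adjusted p 0.000241, limma), while Anapc1, a subunit of the anaphase-promoting complex on the far side, changed by 0.09 (adjusted p 0.305).

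The remaining rises among the 10 largest were A_30_P01023949 on chromosome 10 and A_30_P01026293 on chromosome 19. The first, on the plus strand of chr10:24269165-24276690, read 7.88, 7.93 and 7.47 in control samples and 10.48, 10.53 and 10.20 with AEPS. The second, on the plus strand of chr19:46419916-46421753 between Cuedc2 and Mfsd13a, read 5.93, 6.51 and 6.61 against 8.77, 9.07 and 9.06. RefSeq lists Mir146b, a microRNA that acts on signalling below Toll-like receptors, in that interval, and Cuedc2, 14.8 kb away, fell by 0.54 on the log2 scale (adjusted p 0.00761, limma).

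**Figure D2:**
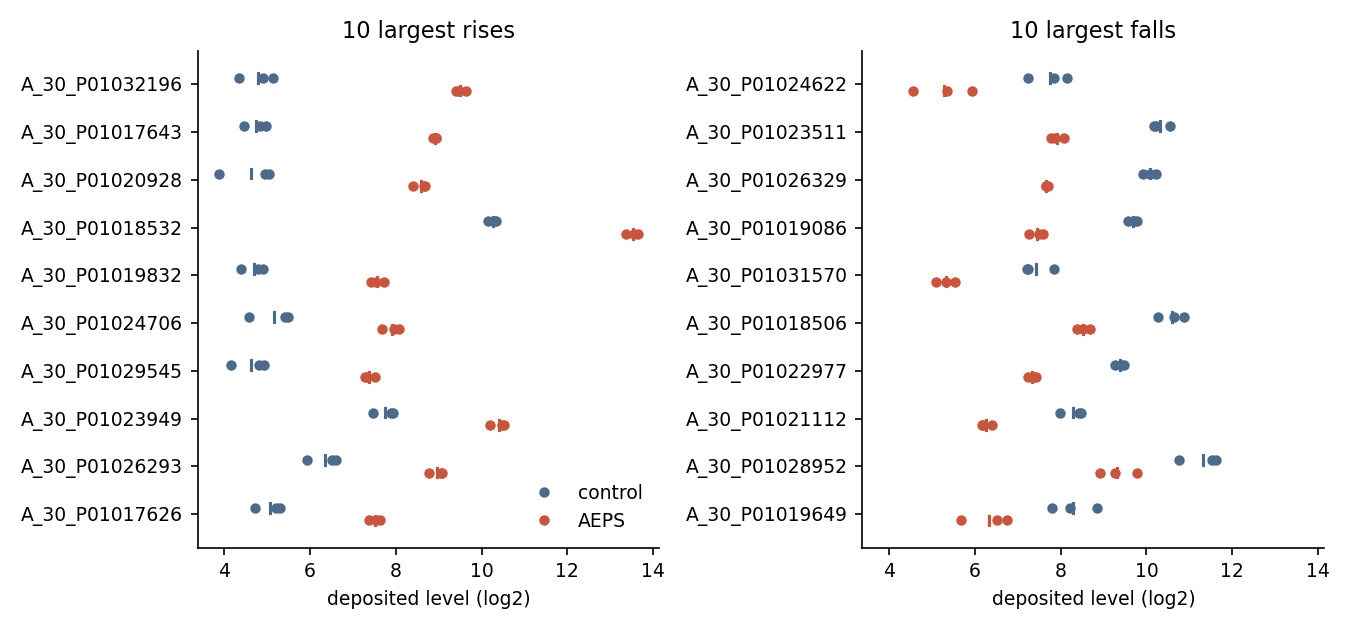
Deposited log2 level (horizontal axis) of the 10 members that rose most and the 10 that fell most among those above background in both groups; points are the 3 samples of each group and the short bar is their mean. In each of these 20 members all 3 AEPS samples lie on 1 side of all 3 control samples.

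At a lectin gene cluster on chromosome 6, minus-strand members rose while the plus strand, where 1 of 10 features was a member, gave a fall. On the minus strand of chr6:129151512-129208737, between Clec2d and Cd69, 6 of 7 members rose. Of these, 3 were above background in both groups and rose by 1.61 to 2.27, and 3 entered through the AEPS group alone. A_30_P01022593, seen in both groups, changed by 1.09 without passing (adjusted p 0.0559, limma, 0.00970 with the replicate number as a block). A_30_P01025159 read 5.13, 5.27 and 5.51 in control samples and 6.82, 7.17 and 7.11 with AEPS. The only plus-strand member, A_30_P01029340, fell from 11.33, 11.28 and 11.02 to 10.66, 10.28 and 10.45. Its log2 change of -0.75 was -0.23 with spike-in scaling. Clec2d, a ligand of a natural killer receptor, rose by 3.26. Cd69, an early activation marker of leukocytes, was not above background on both control arrays and read 2.66, 2.29 and 1.58 in control samples and 5.18, 5.77 and 5.70 with AEPS.

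The falls were smaller. A_30_P01024622, on the minus strand of chr9:34192364-34192810 between Ets1 and Kirrel3, read 8.15, 7.25 and 7.85 in control samples and 5.35, 4.55 and 5.94 with AEPS, a log2 change of -2.47 (SE 0.41, adjusted p 0.00818, limma). A_30_P01023511, on chromosome 7 between Erf and Cic, fell from 10.56, 10.17 and 10.23 to 8.08, 7.86 and 7.78. Cic, a transcriptional repressor gene 15.4 kb away, fell by 0.74 (adjusted p 0.00114, limma). A_30_P01026329, on chromosome 5 between Lrrc8c and Lrrc8d, read 10.22, 10.08 and 9.92 against 7.66, 7.70 and 7.65.

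At chr7:16633756-16634410, a stretch of 0.655 kb between Bicra and Zfp541, all 3 members fell. A_30_P01019086 read 9.78, 9.58 and 9.72 in control samples and 7.27, 7.50 and 7.58 with AEPS. A_30_P01022977 read 9.28, 9.41 and 9.47 against 7.23, 7.42 and 7.38. The other falls among the 10 largest were A_30_P01031570, A_30_P01018506, A_30_P01021112, A_30_P01028952 and A_30_P01019649, with log2 changes of -2.12, -2.06, -2.04, -1.99 and -1.97. All 10 stayed below 0 when the scanner values were scaled on the array's spike-in controls instead (from -2.23 to -0.83), a scaling that moved the median of all tested features to 0.47 and left 2 arrays a group. Of the 10, 6 still passed, and A_30_P01024622, A_30_P01021112, A_30_P01028952 and A_30_P01019649 did not (adjusted p 0.118, 0.0784, 0.197 and 0.161, limma).

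Some members were above background with AEPS and on no control array. Their fold is given as a lower bound, the mean of the 2 scanner arrays with AEPS against the lowest signal counted as above background on the control arrays, or the feature's own signal there where that is higher. These members entered through the AEPS group alone, so being higher there is part of how they were chosen. A_30_P01029335, on the minus strand of chr17:64063362-64066067, was at least 11.5-fold higher, reading 2.62, 3.29 and 3.01 in control samples and 7.38, 7.70 and 7.77 with AEPS. It lies 422 kb from its nearest measured gene, Fer, which changed by 0.09 (adjusted p 0.855, limma). The chromosome 16 members A_30_P01028762, A_30_P01033281 and A_30_P01028475 were at least 4.69-fold, 4.36-fold and 4.11-fold higher. A_30_P01021842, between Manbal and the kinase gene Src on chromosome 2, was at least 1.86-fold higher.

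In the other direction, A_30_P01032262 near Erbin on chromosome 13 was at least 3.86-fold lower with AEPS. A_30_P01019137 on chromosome 5 was at least 2.76-fold lower, A_30_P01018972 between Sox2 and Atp11b at least 2.27-fold, A_30_P01023904 in the imprinted interval between Dlk1 and Rtl1 at least 1.69-fold, and A_30_P01030559 near Psmc4 at least 1.59-fold. All 5 were not well above background on either scanner array with AEPS. Their control levels were low as well, between 3.37 and 5.96 in single samples.

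The array names 12 lincRNAs by symbol in place of coordinates, and 9 of them had members. Minus-strand members within the region labelled for Malat1 (NEAT2), an abundant nuclear RNA, did not all change the same way. All 3 members labelled with its name fell: A_30_P01031072 read 9.88, 9.76 and 9.86 in control samples and 8.10, 8.29 and 8.31 with AEPS. Near the 5′ end of the labelled region, on the same strand, all 3 members rose: A_30_P01021970 read 10.83, 10.60 and 10.79 against 11.60, 11.47 and 11.66. The groups did not overlap in either.

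Distances were counted from the 5′ end of the region that the array gives for each label (chr19:5795689-5802671 for NEAT2 and chr19:5842306-5845476 for NEAT1, both on the minus strand). In that order the changes of the 10 minus-strand members within the NEAT2 region ran from positive to negative. Only 3 of them carry that label, and whether all 10 read 1 transcript was not tested. The 3 at 0.345 to 0.482 kb rose by 0.53, 0.84 and 0.59, with standard errors of 0.07 to 0.10. The 3 at 4.05 to 4.36 kb fell by 0.63, 0.67 and 0.66 on the log2 scale. The 4 at 6.78 to 6.90 kb fell by 1.60, 1.56, 1.65 and 1.51. Every one of the 10 passed the threshold and moved the same way in replicates 1, 2 and 3. With spike-in scaling the middle 3 were near 0 (-0.01, -0.07 and -0.06), the first 3 were at 1.20 to 1.47 and the last 4 at -1.02 to -0.84. The array's own Malat1 gene feature fell by 1.51 ± 0.12.

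**Figure D3:**
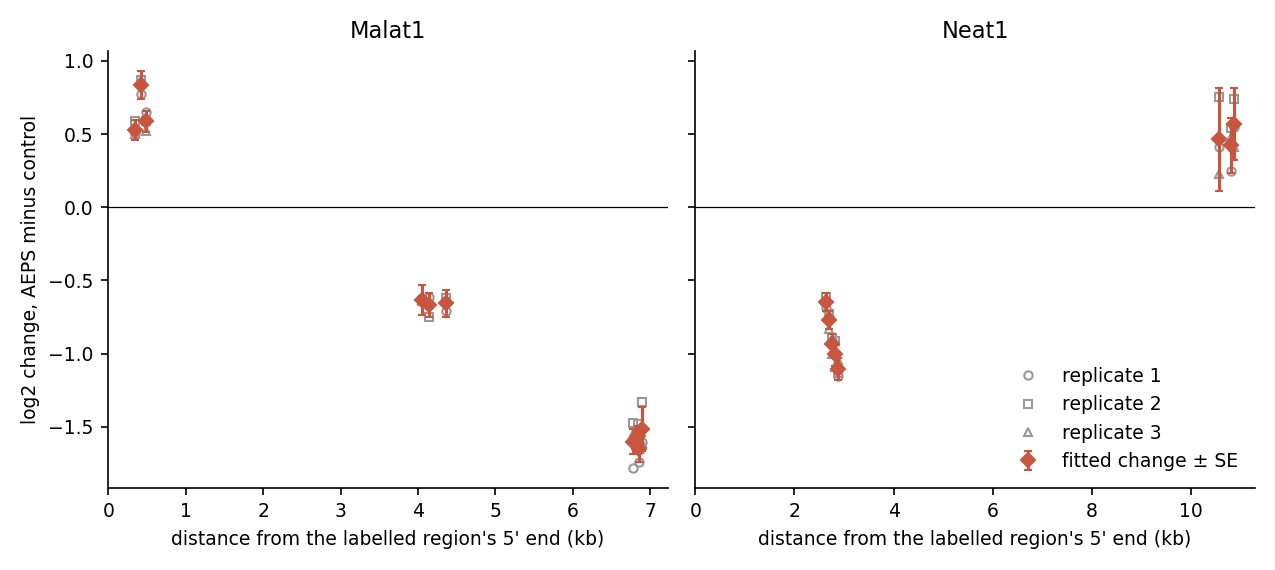
Log2 change (vertical axis) of minus-strand members in or near the array's regions labelled NEAT2 (Malat1) and NEAT1 against distance in kb from the region's 5′ end (horizontal axis). Diamonds are the fitted change with its standard error and open symbols are the 3 replicates. Members in the NEAT2 region run from 0.84 near the 5′ end to -1.65 near the far end. On the Neat1 side members are below 0 at 2.63 to 2.88 kb and above 0 beyond 10 kb, outside the labelled region.

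Neat1 lies beside Malat1 on the same strand. All 5 members labelled NEAT1, at 2.63 to 2.88 kb, fell. A_30_P01021631 read 12.03, 12.06 and 12.10 in control samples and 10.88, 10.93 and 11.06 with AEPS, and the 5 changes ran from -1.11 to -0.65. Farther along the strand, at 10.6 to 10.9 kb and outside the labelled region, A_30_P01019037, A_30_P01025818 and A_30_P01029006 changed by 0.57, 0.42 and 0.46. None of these 3 passed (adjusted p 0.135 to 0.357, limma), but under the block by replicate A_30_P01019037 and A_30_P01025818 passed (0.0137 and 0.0226). With spike-in scaling the 5 labelled members stayed below 0, from -0.55 to -0.02.

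Tug1, an RNA linked to Polycomb and p53 pathways, rose on all 5 of its members, by 0.54 to 1.16. A_30_P01022467 read 7.28, 7.39 and 7.21 in control samples and 8.23, 8.33 and 8.26 with AEPS, so its groups stood apart. Of 2 members each for the imprinted H19 and Kcnq1ot1, 1 of each was called lower. A_30_P01026203 (Kcnq1ot1) fell by 0.43, which turned to 0.26 with spike-in scaling. A_30_P01026972 (H19) was not above background on both AEPS arrays and read 3.95, 4.35 and 4.71 in control samples and 3.57, 3.72 and 3.70 with AEPS. It entered through the control group alone, so its fall is a description. The second Kcnq1ot1 member, A_30_P01026714, changed by -0.39 (adjusted p 0.111, limma, 0.0382 with the replicate block). HOTAIR (1 member), NRON, XIST and BRN1-A (2 each) had no member past the threshold, and lincP21, PINC and TSIX had no member at all.

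Across all 6827 members, 601 were higher and 822 lower with AEPS at an adjusted p of 0.05 (limma, Benjamini-Hochberg over all tested features), which is 8.80% and 12.04%. Over all 30368 features tested the shares were 18.5% and 16.4%, so both shares of the members lie below the background in this fit. The lower share did not do so in every alternative, as set out at the end. Among the 5856 members above background in both groups, 481 were higher (8.21%) and 739 lower (12.6%), beside 18.8% and 17.1% of all features of that kind. The members above background in 1 group only entered through that group: of 402 such with AEPS 120 (29.9%) were called higher, and of 569 such in control samples 83 (14.6%) were called lower. The share over all features seen in 1 group only was not counted, so these counts are descriptions.

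The median log2 change of the members was -0.15, beside -0.04 for all tested features. It was -0.12, -0.22 and -0.11 in replicates 1, 2 and 3, beside -0.03, -0.06 and -0.03; replicates 1 and 2 were on different slides, each with 1 array of either group. The median standard error was 0.22 for members and 0.14 for all tested features, and its part in the lower share called was not tested. Among features above background in both groups with a mean log2 level of 5.41 to 7.99, 7.85% of 2931 members and 16.4% of 6466 other features were higher, and 10.2% and 11.0% were lower. The 3 AEPS values lay above all 3 control values in 857 members (24.9% of all tested features did so, 12.6% of members) and below them in 1345 (24.2% and 19.7%).

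**Figure D4:**
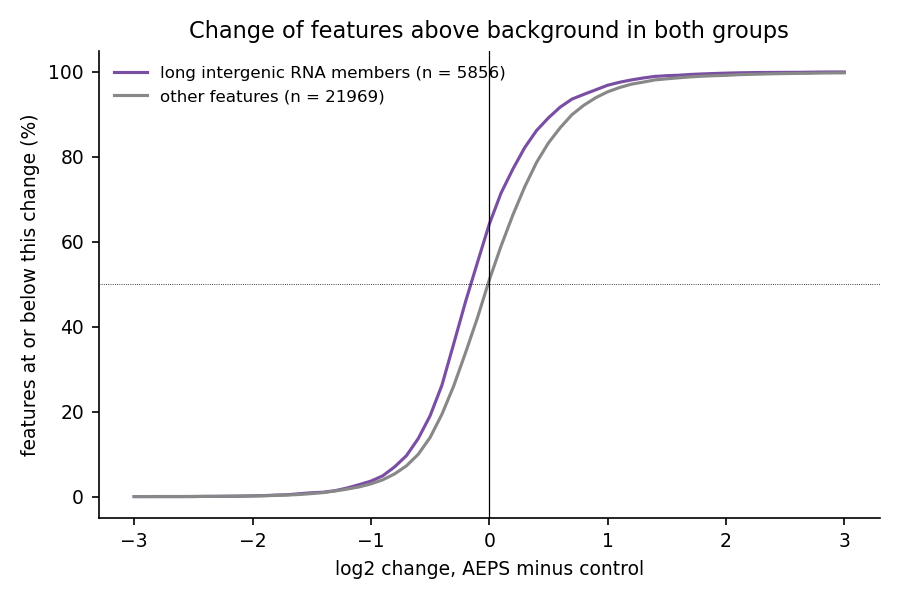
Share of features, in percent (vertical axis), at or below each log2 change (horizontal axis), for the 5856 members and the 21969 other features above background in both groups. The members' curve lies to the left: 64.1% of members and 50.9% of other features changed by less than 0.

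These counts depend on how the samples are scaled and paired. With the replicate number as a block, which the data bear out as a pairing, 957 members were higher and 1738 lower. These are 14.0% and 25.5% of the members, beside 25.8% and 26.3% of all tested features, so the lower share was close to the background. With spike-in scaling 827 members were higher and 55 lower (12.1% and 0.806%), beside 26.4% and 0.985% of all tested features. The members' median was then 0.32 and that of all tested features 0.47. Both medians moved upward with that scaling, but the shift from the changes in the deposited values differed between features. The log2 change of A_30_P01024622 went from -2.47 to -2.23 and that of A_30_P01019649 from -1.97 to -0.83. That of A_30_P01032247 moved downward, from 0.60 to 0.29. Of the 822 members called lower, 555 stayed below 0 with spike-in scaling, beside 2536 of the 4984 called lower among all tested features. Leaving out 1 sample gave 346 to 618 higher and 454 to 742 lower. The rises numbered 346 without AEPS replicate 3 and 360 without AEPS replicate 2, and the falls 454 without control replicate 2, 508 without AEPS replicate 2 and 529 without AEPS replicate 3.

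Replicate 3 had no part in choosing the members, and served as a description of samples the rule did not use. On replicates 1 and 2 alone, with the replicate block, 582 members were called higher, and 564 of these (96.9%) were higher in replicate 3 too, with a median change there of 0.74. Of 900 called lower, 814 (90.4%) were lower in replicate 3, with a median of -0.62. The 582 and 900 calls are 8.52% and 13.2% of the members, beside 15.7% and 13.4% of all tested features. How often the calls of all tested features kept their direction in replicate 3 was not counted. Over all members 41.0% were higher and 58.2% lower in that replicate, with a median of -0.11. With 1 sample a group this comparison has no test.

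Features designed to 1 stranded region may share a transcript and are not independent of each other. The members fall into 3235 stranded regions, of which 1502 had at least 2 members above background in both groups. In 594 of the 1502 at least 1 member was called, and in 14 members were called in both directions. Among 763 regions with 3 or more such members, all rose in 36 and all fell in 28. The 36 lie in 32 separate places and include those beside Ifi204 and Morrbid, 2 beside Cdyl2 on chromosome 8 (medians 1.24 and 1.09) and 1 on chromosome 1 (0.86) in an interval where RefSeq lists Mir181a-1 and Mir181b-1, 138 kb from the leukocyte phosphatase gene Ptprc. Cdyl2, a chromodomain gene, rose by 1.01 and Ptprc by 0.92.

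The 28 regions in which all members fell lie in 23 places. They include chr6:31115515-31168433 (median -1.58) and chr6:31078802-31079644 (median -1.13) between Klf14 and Mkln1, where RefSeq lists Lncpint and the microRNA genes Mir29a and Mir29b-1. With spike-in scaling the medians of 18 of the 28 stayed below 0. The 3 members at chr2:156213798-156216885, where RefSeq lists Norad, rose with a median of 0.71, while the brightest of 4 array features named Norad changed by -0.25 ± 0.08 (adjusted p 0.0670, limma). With spike-in scaling both were above 0, the region's median at 1.36 and the Norad feature at 0.46. Of the 3 regions with most members, 10 each, the plus strand of chr19:5771425-5848475 had a median of -0.27 over its 8 members above background in both groups. The minus strand of chr2:158169020-158191295 had 0.14 over 9 such members and the plus strand of chr4:129497990-129515290 had 0.42 over 10.

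In 591 regions with members above background in both groups on both strands, the medians of the 2 strands correlated at 0.21 (Pearson, across regions that share samples and place). Both strands held a call in 52 of them. The called members rose on both strands in 14, fell on both in 30 and went opposite ways in 8, though in 2 of those 8 the medians of the strands had the same sign. The widest gap was at chr6:129151512-129208737, with 1.67 on the minus and -0.75 on the plus strand.

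The nearest measured protein-coding gene was called higher for 242 of 481 members that rose (50.3%) and lower for 41 (8.52%). For the 739 members that fell these shares were 25.3% and 25.0%, and for 4636 not called 29.9% and 17.2%. Distances run from the member's region to the gene's array features, so the gene itself may reach nearer. Within 10 kb by this measure the neighbour was higher for 53.3% of members that rose and lower for 27.4% of those that fell. Beyond 100 kb it was higher for 51.6% of 91 members that rose. For 152 members that fell, it was lower for 8.55% and higher for 34.9% beyond 100 kb. The changes of member and neighbour correlated at 0.14 over all 5856 members (Pearson) and at 0.22 within 10 kb. Several members share a neighbour: the 481 that rose lie in 222 places. In 1542 members (22.6%) a feature of another kind lies on the same strand of the region, so some members may read the neighbouring gene's own transcript, which was not tested.

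**Figure D5:**
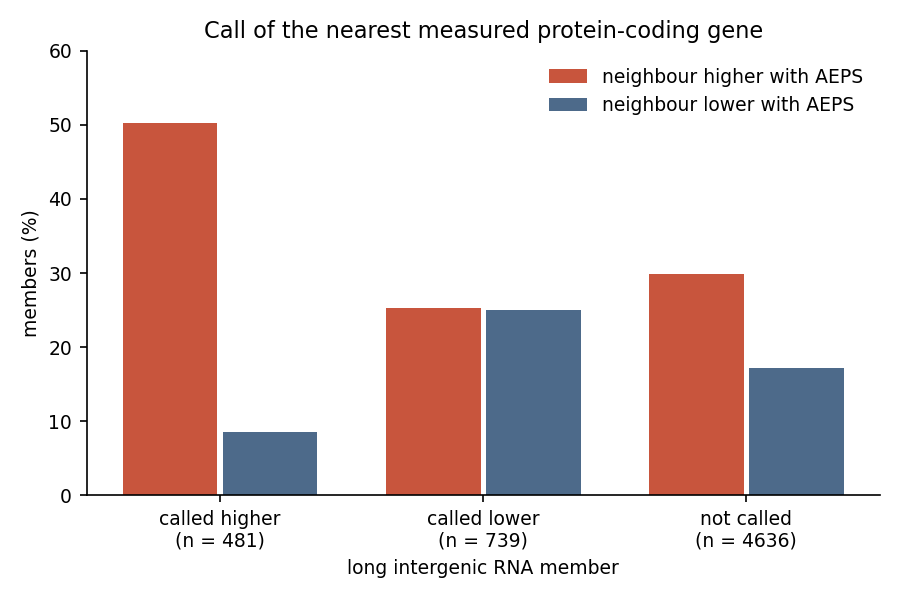
Share of members, in percent (vertical axis), whose nearest measured protein-coding gene was called higher or lower with AEPS, for members above background in both groups that were called higher, lower or not called (horizontal axis). The neighbour was higher for 50.3% of members that rose, 25.3% of those that fell and 29.9% of those not called.

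The median GC content was 41.7% in the 481 members that rose, 46.7% in the 739 that fell and 45.0% over all lincRNA features of the array. A CpG was present in 45.3%, 64.5% and 48.2%. The letters ATTTA, the core of AU-rich elements that mark short-lived messenger RNAs, were found on the probe strand in 9.36% of rises, 3.38% of falls and 6.98% of all 16251 lincRNA features. Their reverse complement (TAAAT) was found in 6.86%, 6.09% and 7.54%. The polyadenylation signal AATAAA was found in 4.16%, 2.30% and 3.92% on the probe strand, and its reverse complement (TTTATT) in 3.33%, 2.57% and 3.03%. Among the 4636 members above background in both groups and not called, the median GC content was 45.0% and a CpG was present in 53.0%. ATTTA was found in 4.77% of them and AATAAA in 3.67% on the probe strand, and the reverse complements in 6.23% and 2.63%. A match says only that the letters occur in these 60 bases, and no test was made.

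Beside the lincRNA features, 68 noncoding RNA genes from a list fixed for this work were looked up among the other features, and 29 were tested. A single feature stood for each gene, although Norad had 4 tested features and Gas5, Tug1 and Airn had 3 each. The call is that of the feature shown, and other features of a gene may differ. Of the 29, 11 rose, 7 fell and 11 did not pass (13 rose and 9 fell when replicate number was a block). Over all tested features 18.5% were higher and 16.4% lower, or 25.8% and 26.3% with that block, so the small list is given as a description. Its median was 0.06 beside -0.04 for all tested features. Rises included the microRNA host gene Mir22hg (1.26 ± 0.20), the Myc neighbour Pvt1 (0.83 ± 0.14), Tug1 (0.88 ± 0.18), Mirg (0.86 ± 0.15) and the small nucleolar RNA hosts Snhg1 (0.38), Snhg3 (0.28) and Snhg12 (0.46). Malat1, Neat1, Peg13, Rmrp and Rpph1 fell, the last 2 by 0.77 and 0.79; they encode the RNA parts of RNase MRP and RNase P. Snhg17 and Dleu2 fell by 0.42 and 0.38 and turned to 0.27 and 0.18 with spike-in scaling. Airn passed narrowly (0.32, adjusted p 0.0492), and Gas5, Norad, Snhg16, Ftx and Mirt1 did not pass.

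The brightest members changed little. A_30_P01026458 on chromosome 11 read 18.33, 18.33 and 18.40 in control samples and 18.18, 18.29 and 18.40 with AEPS, and the other 4 of the 5 brightest changed by -0.26 to -0.06, none past the threshold, though A_30_P01021243 passed with the replicate block (adjusted p 0.0290, limma). A_30_P01020015, 1 of the 5, lies at chr17:39982023-39983277, and RefSeq lists the noncoding gene AY036118 between its flanking protein-coding genes. Its region also holds the array feature BC031453 on the same strand. The enclosing plus-strand region chr17:39960567-39992817 holds that feature with AK145507 and Rn18s. Which transcript A_30_P01020015 reads was not tested. At the edge of the rule, the dimmest members were A_30_P01028818 (means of 3.47 in control samples and 1.97 with AEPS) and A_30_P01023255 (2.07 and 3.67). The brightest lincRNA features left out were A_30_P01023248 (5.12 and 5.51) and A_30_P01022960 (4.22 and 5.86), each above background on 1 of 2 control arrays. A_30_P01020096 on chromosome 14 shows how far a single sample can carry a mean: it read 7.34, 14.18 and 4.13 with AEPS and 1.62, 2.19 and 3.70 in control samples, a change of 6.05 with a standard error of 2.57 that did not pass (adjusted p 0.127, limma).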

How the data were processed

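RNA of 3 control and 3 AEPS samples was measured on 1-colour arrays. The deposited value table holds log2 values that the authors had already normalized between arrays, as its nearly equal column distributions show. The method is not given in the labels or file headers. Per the file headers, the scanner files hold background-subtracted intensity values from Agilent Feature Extraction 10.7.1.1, with detection flags and positions in mm9. Gene names and neighbour order came from RefSeq (GRCm38.p6), with none of its coordinates printed. Distances to neighbours used the mm9 positions of the array features, not the ends of the genes.

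Features above background on every distinct scanner array of a group (30368, control spots left out) were fitted with limma 3.58.1 in R 4.3.3 (lmFit, eBayes), with Benjamini-Hochberg adjustment over all of them and a threshold of 0.05. The labels do not tie same-numbered samples together, but their deviations from the group means correlated at 0.54, 0.34 and 0.39, and those of other pairs at -0.48 to 0.23, so the replicate number was also used as a block. Scaling on 6 spike-in probes used the 4 distinct scanner arrays. Tested on simulated data with 2000 of the 30368 features changed, the fit recovered 67.3% of changes of 1 log2 unit and 90.8% of those of 2, with 93 false calls. With 200 changed it recovered 41% and 74%, with 10 false calls. The simulated noise was independent between samples, without the pairing by replicate number, so these figures need not hold for the real data. The number of arrays limits the precision.

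Members and lists were chosen with earlier results of these data known. Named features are the 10 largest rises and 10 largest falls seen in both groups, the 5 largest each from and to background, the 5 brightest, those in the 3 regions with most members, those at the edge of the rule and the noncoding RNA list. The places, the regions in which all members were called, labelled lincRNAs, A_30_P01020096 and single members shown for them were picked after their values were seen. Alternatives were other scalings (75th percentile, normexp, spike-in), filters, blocks, a trended robust fit and leaving out each sample. Python 3.11.15 was used for the rest.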

Additional observations from a re-analysis of the deposited data

How the results depend on the processing

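The count of members that rose (601) was 957 with the replicate block, 206 with scanner values scaled at the 75th percentile, 211 with normexp and quantile scaling, and 346 to 618 with 1 sample left out. The count that fell (822) was 1738 with the replicate block, 223 at the 75th percentile, 1324 at the 75th percentile with the slide as a block, 331 with normexp and quantile, 55 with spike-in scaling, 513 with no filter on dim features, and 454 to 742 with 1 sample left out. The lower share of members, beside that of all tested features, was 19.4% against 18.3% at the 75th percentile with the slide block. It was 7.51% against 6.74% with no filter, where all 55681 features were the background. At the 75th percentile alone it was 3.27% against 3.83%, and with normexp and quantile 4.85% against 6.91%. With the replicate block it was 25.5% against 26.3%, and with spike-in scaling 0.806% against 0.985%. The number of all tested probes past the threshold (10594) became 2806 at the 75th percentile, 4625 with normexp and quantile, and 6818 to 9195 with 1 sample left out (7005 without control replicate 2, 6818 without AEPS replicate 2). The members' median change (-0.15) was -0.31 at the 75th percentile, with and without the slide as a block, 0.32 with spike-in scaling, and -0.18 to -0.13 with 1 sample left out. The scanner alternatives rest on 2 arrays a group, so they also have fewer samples.

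Of 161 single results, 145 kept their call with the replicate block and 16 came to pass it. Spike-in scaling kept 106, while 29 no longer passed, 4 came to pass and 18 that passed in neither fit changed sign. It turned 4: A_30_P01026203 to 0.26, A_30_P01024771 to 0.010, Snhg17 to 0.27 and Dleu2 to 0.18. On the same scanner arrays at the 75th percentile these 4 were below 0, at -0.37, -0.62, -0.35 and -0.45. Scanner values at the 75th percentile turned A_30_P01028570 to -0.44, with and without the slide block, and passed the threshold only with the slide block. The cause of these turns was not tested. Features near background have only a bound in 1 group, and replicate 3 has no detection flags.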
